A study of Mus musculus with 16 samples.

Results

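Mouse blastocysts treated with SB203580, an inhibitor of p38 MAP kinases, were compared with blastocysts treated with U0126, which inhibits MEK, the activating kinase upstream of ERK. The comparison took the 3 samples labelled SB203580 and the 3 labelled U0126, which are 6 of the 12 samples of the series, and they were read on 8 of its 16 Affymetrix arrays. Both inhibitors are labelled at 20 µM, and neither the length of treatment nor the strain is stated in the labels. For replicate 1 of each group, RNA labelled by a small sample assay went on a 430A and on a 430B array, and the pair was joined here into 1 sample by the number in their titles. For replicates 2 and 3, RNA labelled by a two-cycle assay went on 430 2.0 arrays. Whether replicates came from separate pools of embryos is not stated, so p-values measure only the spread between these samples. The series also holds 3 samples titled WT, for which no treatment is named and which are called controls here. A further 3 samples were treated with 25 µM SP600125, a JNK inhibitor. Neither set was part of the contrast, and in the main fit both added only to the estimate of spread. Their 430 2.0 arrays also counted in the constant added to signals, the filter on dim probe sets and the choice of a gene's brightest probe set. Control values are given below as background.

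A blastocyst has an outer trophectoderm, which pumps fluid into a cavity and later forms the placenta, and an inner cell mass, which divides into epiblast and primitive endoderm. Epiblast cells secrete FGF4, and its signal through MEK and ERK promotes primitive endoderm, while loss of that signal favours epiblast. ERK also induces genes that restrain it, among them Sprouty genes and dual specificity phosphatases. The p38 kinases respond to stress and cytokines and act through kinases such as MK2 and MK3, and in preimplantation embryos they are known for roles in actin organisation and in filling of the cavity.

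Defining markers of the 3 tissues passed the filter on dim probe sets. These were Cdx2, Eomes, Gata3, Krt8 and Krt18 for trophectoderm, Nanog, Pou5f1, Sox2 and Fgf4 for epiblast, and Gata6, Gata4, Sox17, Pdgfra and Lama1 for primitive endoderm. On the 430 2.0 arrays the median signal was 66.2 and 68.9 with SB203580 and 77.7 and 83.0 with U0126. On the arrays of replicate 1 it was 131.6 and 132.7 (430A) and 226.9 and 230.9 (430B). Actin signal at the 3' end over that at the 5' end, which reflects RNA integrity, lay between 1.71 and 1.75 on the 4 arrays of the 430 2.0 type, but in replicate 1 on the 430A array it was 2.81 with SB203580 and 1.62 with U0126. The same ratio of Gapdh was 3.54 and 2.84 with SB203580 and 3.69 and 3.79 with U0126 on the 430 2.0 arrays, and 3.17 and 2.61 on the 430A arrays. The part of these array properties in the differences below was not tested. The blastocysts were measured whole, so fewer cells of a type and less RNA per cell cannot be told apart.

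Differences are SB203580 minus U0126 on the scale of log2 of signal plus a constant of 12.6, each taken within an array type, with the standard error and n = 3 samples per group. A positive difference means a higher signal with SB203580. A probe set was called at a Benjamini-Hochberg adjusted p under 0.05 by limma over all 27022 probe sets tested. Signals are listed as replicate 1, then replicates 2 and 3, and because replicate 1 was read on another array type, signals are to be compared only between samples of the same replicate type.

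The 2 inhibitors left blastocysts with different levels of 371 probe sets, 1.37% of those tested. Of these, 144 (0.533%) were higher with SB203580 and 227 (0.840%) were higher with U0126, for 114 and 171 genes, and no gene was called in both directions. The smallest difference called was 0.38 and the median size was 0.92. In all 371 the SB203580 and U0126 samples did not overlap within either array type, which was so for 24.8% of all probe sets tested (9.85% with SB203580 higher and 15.0% with U0126 higher). At an unadjusted p under 0.05 there were 3591 probe sets (13.3%). Centring each array on its median moved the split to 283 higher with SB203580 and 168 higher with U0126, or from 38.8% to 62.7% higher with SB203580. The count fell to 216, 145 and 145 without SB203580 replicate 1, 2 and 3, to 160 without U0126 replicate 3, and to 36 without the intensity trend in the estimate of spread.

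The called probe sets include 29 that name no gene in the annotation used and 11 that name several, and none of these is named here. The largest difference toward SB203580 was at a probe set of the second kind, 1448194_a_at, which is singled out after its values were seen. It read 2062.2, 7278.0 and 6017.4 with SB203580, 233.2, 759.7 and 204.6 with U0126, and 5861.8, 7765.5 and 7007.9 in the controls. U0126 samples were far below both other groups, and the difference was 3.70 ± 0.33 (adjusted p = 3.58e-05).

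**Figure D1:**
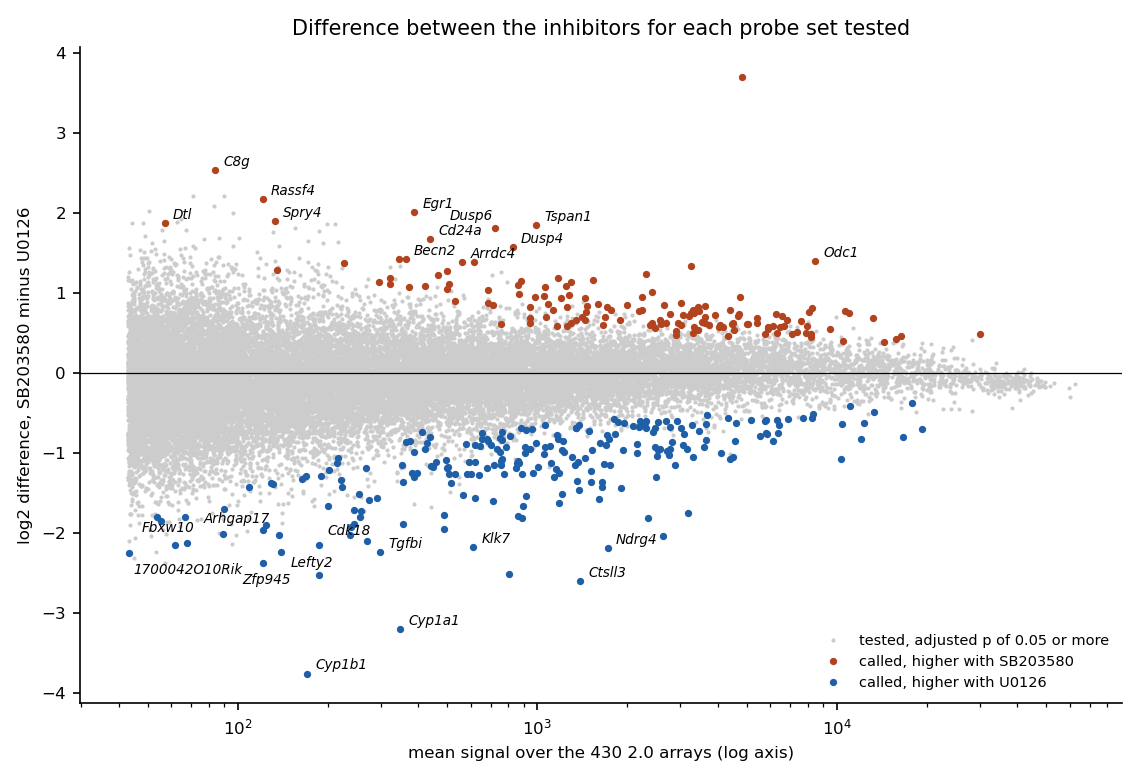
Each point is a probe set tested, with its mean signal over all 430 2.0 arrays of the series on a log axis. Its log2 difference, SB203580 minus U0126, is on the vertical axis. The 144 probe sets called higher with SB203580 are orange, the 227 called higher with U0126 are blue, and the names are those of the 12 genes with the largest differences in each direction, from 1.39 to 2.54 upward and from 2.13 to 3.76 in size downward. The unlabelled point at 3.70 names several genes.

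Among genes that ERK induces to restrain its own pathway, those that passed the test were higher with SB203580 than with U0126. The list of 13 tested genes holds such feedback genes and also Etv4, Etv5 and Ccnd1, which are not inhibitors of the pathway. From these 13 genes 5 were called, all higher with SB203580. Over all 12614 genes tested by their brightest probe set, 0.721% were called higher with SB203580, 1.24% higher with U0126 and 1.96% either way. The called genes were Dusp6, Dusp4, Spry4, Phlda1 and Spry2. The median difference of the 13 genes was 0.22, against -0.05 over all genes. Without 1 of the samples, 2 to 4 of them were called, 2 were called from the 430 2.0 arrays alone and none without the intensity trend. The median of the list kept its sign in every alternative, from 0.16 to 0.73.

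Dusp6, a cytoplasmic phosphatase of ERK, gave signals of 371.0, 572.5 and 864.6 with SB203580 and 61.0, 267.2 and 209.3 with U0126. Each SB203580 sample lay above the U0126 samples of its array type, and the difference was 1.81 ± 0.29 (adjusted p = 0.00367). In the controls the signals were 523.6, 1006.6 and 897.5, so the U0126 samples were the low ones. Dusp4, a nuclear phosphatase of the same family, read 3435.4, 764.7 and 1243.4 with SB203580 and 1720.7, 321.1 and 209.1 with U0126. It was lower in every U0126 sample, by a difference of 1.57 ± 0.24 (adjusted p = 0.00237), and the control signals of 4538.9, 1665.1 and 1366.5 were above both treated groups in each replicate type. Dusp6 and Dusp4 stayed called without any 1 sample.

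Spry4, a Sprouty inhibitor of receptor tyrosine kinase signalling, measured 276.0, 101.4 and 274.3 with SB203580 against 55.3, 16.8 and 79.1 with U0126. The groups did not overlap, and the difference was 1.90 ± 0.44 (adjusted p = 0.0433), but SB203580 replicate 2 was close to U0126 replicate 3. The U0126 signal of 16.8 was near the added constant, and the difference ran from 1.38 with a constant of 50 to 2.33 without SB203580 replicate 2. Spry4 was called at 1 of 3 probe sets, all 3 of the same sign. Leaving out SB203580 replicate 1 or 3 or U0126 replicate 1 or 2 lost the Spry4 call. Phlda1, a feedback regulator of receptor signalling, gave 339.5, 388.5 and 475.6 with SB203580 and 159.7, 217.3 and 133.3 with U0126, a difference of 1.19 ± 0.27 (adjusted p = 0.0384). Among the omissions of a sample, the Phlda1 call held only without U0126 replicate 2. Spry2 was higher with SB203580 in each array type, at 569.1, 2199.8 and 2486.4 against 287.7, 1632.8 and 1606.0, and its difference was 0.67 ± 0.16 (adjusted p = 0.0414). Its other, dimmer probe set had the opposite sign (-0.48) and was not called.

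The other genes of the list did not pass the test. Spry1 stood at 0.79 (adjusted p = 0.116), Spred1 at 0.22 and the ETS factor Etv4 at 0.14. Etv5, another ETS factor downstream of FGF, stood at -0.34, with Dusp7 at -0.33, and Il17rd and Ccnd1 both at -0.12. So the 13 members were spread from -0.34 to 1.90, and Spry1, not called, lay above the called Spry2. Dusp5 was too dim to be tested.

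**Figure D2:**
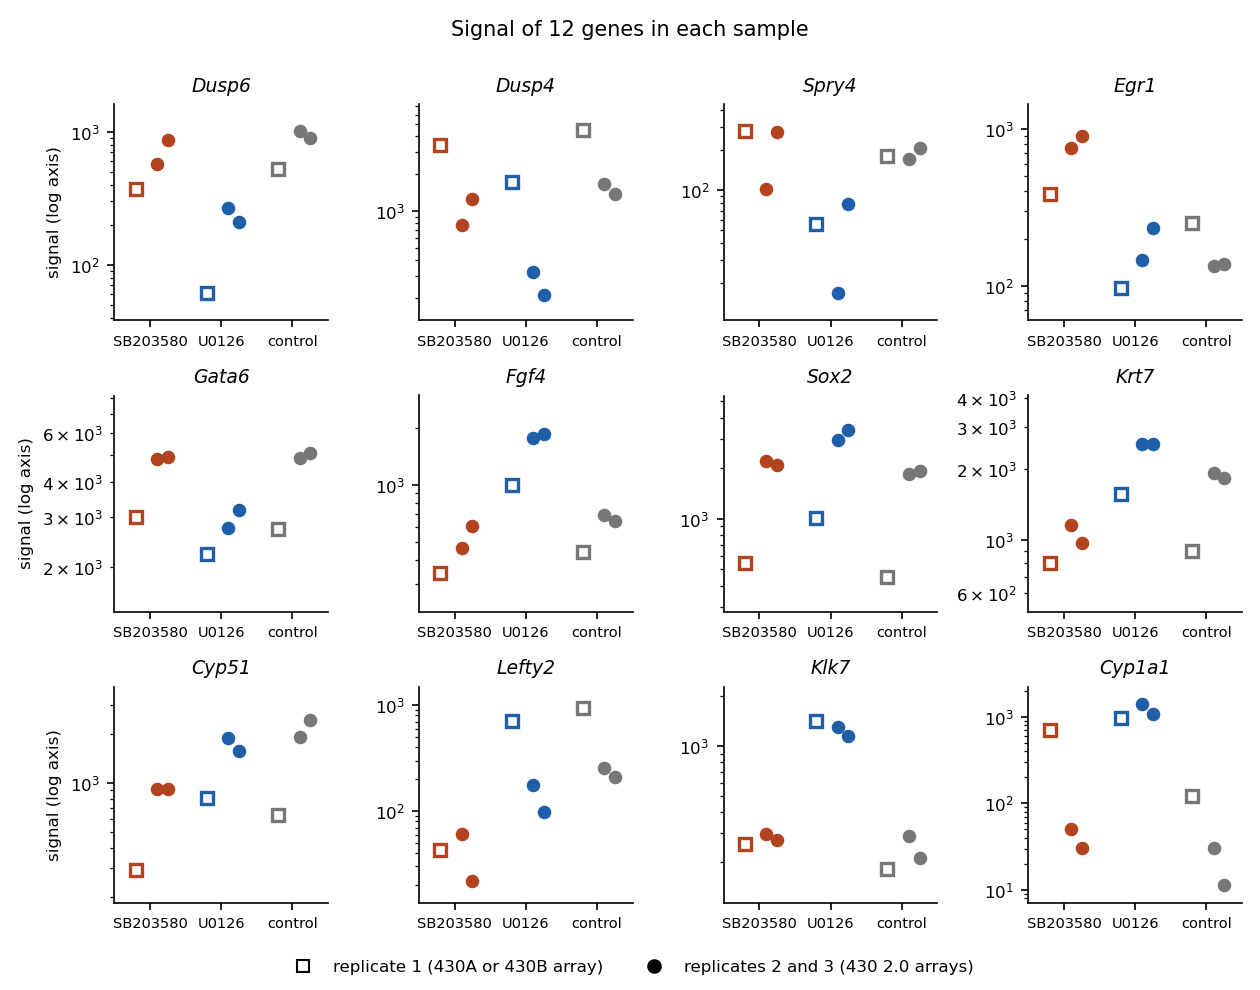
Signals of 12 genes are plotted on log axes for each sample treated with SB203580 or U0126 and for the controls, with open squares for replicate 1 (430A or 430B arrays) and filled circles for replicates 2 and 3 (430 2.0 arrays). Dusp6, Dusp4, Spry4, Egr1 and Gata6 were higher with SB203580 than with U0126, and Fgf4, Sox2, Krt7, Cyp51, Lefty2, Klk7 and Cyp1a1 were lower, with no overlap within an array type.

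Of the immediate early genes, which growth signals induce within minutes, 1 of 16 tested was called, higher with SB203580 as were 0.721% of all genes. Egr1, a zinc finger transcription factor, read 383.3, 753.7 and 897.5 with SB203580 and 96.4, 145.2 and 233.6 with U0126. All SB203580 samples were higher, and the difference was 2.01 ± 0.37 (adjusted p = 0.0109). The control signals of 251.5, 134.2 and 137.4 were below the SB203580 samples, and on the 430 2.0 arrays they were close to the U0126 samples. The call was lost without SB203580 replicate 2 or 3. Fos, a partner of Jun in AP-1, gave 199.5, 162.0 and 310.6 against 118.6, 24.7 and 140.8. It was higher with SB203580 in each array type, but its difference of 1.33 ± 0.46 did not pass (adjusted p = 0.190). The antiproliferative gene Btg2 stood at 0.74 and the stress factor Atf3 at -0.88, neither called, and the median of the 16 genes was -0.05.

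None of 21 tested p38 pathway genes or of 14 tested genes between RAS and ERK was called. At an unadjusted p under 0.05 by limma there were 5 and 1, against 13.3% of all probe sets tested. Of the p38 pathway genes 1 was called with a constant of 50, with the 60th percentile filter and after median centring. The medians were -0.12 and -0.20. Mapk14, which encodes p38 alpha, differed by 0.12 ± 0.14, with a 95% interval from -0.18 to 0.41. Map2k1 and Map2k2, which encode the MEK targets of U0126, differed by 0.05 (interval -0.22 to 0.31) and -0.17 (interval -0.65 to 0.31). Mapkapk2, which encodes the p38 substrate MK2, differed by 0.00, with an interval from -0.59 to 0.60. The intervals for Mapkapk2 and Map2k2 were the wider ones, and an inhibitor of kinase activity need not change the transcript of its target.

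Map2k6, which encodes a kinase that activates p38, read 1298.3, 731.3 and 581.0 with SB203580 and 392.2, 383.1 and 418.0 with U0126. The SB203580 samples were higher in each array type, and the difference of 1.02 ± 0.26 had an adjusted p of 0.0591 by limma. Mapkapk3, which encodes MK3, went the other way, with 1399.5, 233.3 and 280.4 against 2945.7, 348.4 and 457.3. Its difference of -0.77 ± 0.22 was not called either (adjusted p = 0.0999), and the control signals of 4505.5, 899.3 and 567.2 lay above all treated samples of the same array type. Gadd45g, a stress gene that can activate the p38 branch, stood at -0.72 (adjusted p = 0.104), and Mapk11, which encodes p38 beta, was too dim to be tested.

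The epiblast genes that passed the test were higher with U0126. Of 17 tested, 3 were called (Fgf4, Sox2 and Klf5), all higher with U0126, against 1.24% of all genes. Negative differences were found in 13 of 17, against 7018 of all 12614 genes, with a median of -0.27. At an unadjusted p under 0.05 by limma 5 were higher with U0126 and 1 was higher with SB203580, against 13.3% of all probe sets either way. The median stayed between -0.40 and -0.16 in all alternatives, but without 1 sample the number called was 1 or 2, and after median centring it was 1. The call common to those fits was Fgf4. Fgf4, the ligand that epiblast cells send to primitive endoderm precursors, gave 344.3, 465.3 and 604.8 with SB203580 and 996.4, 1765.4 and 1843.3 with U0126. Its U0126 samples were high and the SB203580 samples lay near the controls at 441.4, 692.9 and 643.1. The difference was -1.66 ± 0.20 (adjusted p = 0.000503), and 3 of its 4 probe sets were called. It was called in every alternative that held this probe set. The probe set ends in _x_at, so the alternative without _x_at and _s_at probe sets did not hold it.

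Sox2, a core pluripotency factor, read 548.6, 2198.5 and 2083.2 with SB203580 and 1004.3, 2930.2 and 3383.5 with U0126. The U0126 samples were higher in each array type, by -0.66 ± 0.14 (adjusted p = 0.0255), and the controls at 448.5, 1845.6 and 1921.7 were below both groups. Leaving out U0126 replicate 2 was the only omission of a sample that kept the call, and median centring lost it. Klf5, a Krüppel-like factor of trophectoderm and inner cell mass, differed by -0.41 ± 0.10 (adjusted p = 0.0474) and was not called without any 1 sample. Klf5 was called at 1 of 3 probe sets, and 2 of the 3 had the same sign. Nanog, which marks the epiblast, was not called and had the opposite sign (0.42, 95% interval 0.00 to 0.84, adjusted p = 0.372). Pou5f1, which encodes OCT4, differed by -0.11 with an interval from -0.44 to 0.23, and Zfp42 by -0.34 (adjusted p = 0.187). Among 7 tested FGF ligands and receptors Fgf4 was the called member, against 1.24% of all genes called higher with U0126, and the median was -0.12.

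Of 7 tested transcription factors and receptors that mark primitive endoderm, 1 was called, against 0.721% of all genes called higher with SB203580. Gata6, needed for primitive endoderm formation, read 2994.9, 4817.6 and 4920.5 with SB203580 and 2214.7, 2743.8 and 3172.6 with U0126. The SB203580 samples were higher and lay near the controls at 2719.6, 4895.0 and 5088.3. The difference was 0.62 ± 0.12 (adjusted p = 0.0127), and the call was lost without SB203580 replicate 2 or 3 or U0126 replicate 2. Gata6 was called at 1 of 3 probe sets, all 3 of the same sign. Pdgfra, a receptor of the same cells, went the same way with 1030.4, 2501.4 and 2924.2 against 613.9, 1608.7 and 2018.2, but did not pass (0.63 ± 0.15, adjusted p = 0.0515). The remaining members, none called, did not share this direction throughout. Sox17 stood at 0.25, Gata4 at 0.05, Foxa2 at 0.00, Hnf4a at -0.46 and Sox7 at -0.51. For Sox7 the samples did not overlap, with U0126 higher. The median of the 7 genes was 0.05.

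Later products of primitive endoderm did not pass the test by their brightest probe sets. None of 10 basement membrane genes was called, none reached an unadjusted p under 0.05 by limma, and their differences lay between -0.30 and 0.20 with a median of 0.03. Lama1, a laminin chain, differed by -0.18 (95% interval -0.61 to 0.25) and Sparc, a matrix glycoprotein, by 0.04 (interval -0.30 to 0.38). None of 10 endocytic receptor and apolipoprotein genes was called by its brightest probe set, and the median was 0.04. An unadjusted p under 0.05 by limma was reached by 1, against 13.3% of all probe sets tested. Against the controls that both groups share, the median of these 10 genes was -0.89 for SB203580 and -0.78 for U0126. Amn, part of the cubilin receptor, differed by -0.27 between the inhibitors (interval -0.82 to 0.28), and by -1.80 and -1.53 from the controls. Apoa1 differed by -1.39 between them and did not pass (adjusted p = 0.194).

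Of 12 tested trophectoderm transcription factors, 1 was called, higher with U0126 as were 1.24% of all genes. Eomes, a T-box factor of trophoblast stem cells, read 2843.0, 4629.2 and 4237.6 with SB203580 and 3489.6, 7655.2 and 6862.9 with U0126. The SB203580 samples were the low ones, since the controls stood at 3189.5, 7197.2 and 5562.4. The difference was -0.57 ± 0.13 (adjusted p = 0.0297), and median centring and 4 of the 6 omissions of a sample lost the call (SB203580 replicates 2 and 3, U0126 replicates 2 and 3). Cdx2, which specifies the lineage, differed by -0.05 with a 95% interval from -0.38 to 0.28. The homeobox gene Msx2 stood at 0.74 (adjusted p = 0.0999) and Elf3 at -0.37 (adjusted p = 0.0802).

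Products of the epithelium showed single members that differed beside others that did not pass. Krt7, a keratin of simple epithelia, gave 800.7, 1165.5 and 977.6 with SB203580 and 1564.7, 2552.6 and 2557.7 with U0126. Its U0126 samples were higher in each array type, the difference was -1.15 ± 0.15 (adjusted p = 0.000997), and it was called in every alternative. Krt7 was the 1 called of 4 tested keratins, against 1.24% of all genes called higher with U0126. The other 3 keratins were not called, with Krt8 at -0.16 (95% interval -0.35 to 0.03), Krt18 at -0.25 and Krt19 at 0.07.

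Aqp3, a water and glycerol channel, read 268.7, 708.3 and 917.9 with SB203580 and 770.1, 2109.5 and 1857.2 with U0126. Every U0126 sample was higher, by -1.35 ± 0.27 (adjusted p = 0.0159), with the controls between the groups on the 430 2.0 arrays at 1393.2 and 1024.7. The call was lost from the 430 2.0 arrays alone and without SB203580 replicate 1 or 2 or U0126 replicate 2 or 3. Aqp3 was called at 1 of 3 probe sets, all 3 of the same sign. Atp1b1, the beta subunit of the sodium pump that drives fluid into the cavity, was higher with SB203580 by 0.48 ± 0.11 (adjusted p = 0.0398). It was called at 2 of 5 probe sets, and 4 of the 5 had the same sign. The Atp1b1 call was lost in 5 of the 6 omissions, the exception being U0126 replicate 2. Aqp3 and Atp1b1 were the 2 called among 14 cavitation and junction genes (1.96% of all genes were called), whose median was -0.03.

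Both Lefty genes, which encode secreted antagonists of Nodal, were lower with SB203580, and they were the 2 called among 12 Nodal pathway genes, against 1.24% of all genes called higher with U0126. Lefty2 read 42.9, 61.2 and 21.8 with SB203580, 705.6, 174.5 and 97.2 with U0126, and 933.1, 256.1 and 208.0 in the controls. SB203580 samples were low in each array type, and the difference was -2.24 ± 0.47 (adjusted p = 0.0219). Lefty1 read 178.6, 24.7 and 110.9 with SB203580, 404.0, 280.8 and 351.4 with U0126, and 315.8, 422.6 and 393.2 in the controls. It differed by -1.89 ± 0.42 (adjusted p = 0.0308). Neither call held in most omissions of a sample. Lefty2 kept it without SB203580 replicate 2 or U0126 replicate 3 and Lefty1 without SB203580 replicate 1, and the differences ran from -2.72 to -1.51 and from -2.37 to -1.23 over the alternatives. Nodal stood at -0.58 (adjusted p = 0.401) and Pcsk6, a protease that processes Nodal, at -0.53 (adjusted p = 0.0686), and the median of the list was -0.22.

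Cdx1, a homeobox gene that Wnt signalling induces, was the 1 called of 6 tested Wnt responsive genes, against 1.24% of all genes called higher with U0126. It gave 41.4, 113.2 and 79.7 with SB203580, 355.6, 334.9 and 317.6 with U0126, and 261.9, 518.3 and 305.0 in the controls. The SB203580 samples were the low ones, and U0126 samples lay among the controls. The difference was -2.02 ± 0.35 (adjusted p = 0.00702), which held without any 1 sample and was lost from the 430 2.0 arrays alone and without the intensity trend. Dkk1, a secreted Wnt antagonist, differed by -0.09 between the inhibitors (95% interval -0.68 to 0.51) and stood at -1.22 and -1.14 against the shared controls.

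The largest differences toward U0126 among genes were in Cyp1b1 and Cyp1a1, which encode cytochrome P450 enzymes and are the usual readout of the aryl hydrocarbon receptor, a ligand-activated transcription factor that senses planar aromatic compounds. The receptor and its partner ARNT bind a short core, GCGTG. The stretches of RefSeq promoter upstream of the start that hold it in these genes are shown because the genes carry the largest differences, on build GRCm38.p6, with the core in capitals. In Cyp1a1 (chr9:57697499-57697612, plus strand) the core began 54 bases before the start, and in Cyp1b1 (chr17:79715073-79715197, minus strand) it lay on the opposite strand, where it reads CACGC, 76 bases before the start.
Cyp1a1: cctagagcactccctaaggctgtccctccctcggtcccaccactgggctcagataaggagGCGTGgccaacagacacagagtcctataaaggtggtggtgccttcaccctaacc
Cyp1b1: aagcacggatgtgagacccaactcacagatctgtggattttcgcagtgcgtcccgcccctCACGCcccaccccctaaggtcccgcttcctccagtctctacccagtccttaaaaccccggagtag
On either strand GCGTG was present in 28.2% of 32851 promoter windows of 250 bases, so that a match says little by itself. Of the 6 receptor genes with a window 5 held it (Ahrr, Arnt, Cyp1a1, Cyp1b1 and Tiparp).

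Cyp1b1 read 107.5, 1.5 and 9.0 with SB203580, 200.6, 589.9 and 689.7 with U0126, and 58.7, 4.8 and 58.9 in the controls. The U0126 samples were high on the 430 2.0 arrays, where SB203580 signals were under the added constant, and the groups were much closer in replicate 1. The difference was -3.76 ± 0.76 (adjusted p = 0.0185). Within replicate 1 it was -0.83 and on the 430 2.0 arrays -5.22, and with a constant of 50 it was -2.65. Cyp1a1 gave 705.5, 50 and 30.4 with SB203580, 963.0, 1384.6 and 1079.4 with U0126, and 121.6, 30.9 and 11.4 in the controls. SB203580 replicate 1 was near its U0126 counterpart, and SB203580 replicates 2 and 3 were far below theirs. The difference was -3.20 ± 0.62 (adjusted p = 0.0140), with -0.44 in replicate 1 and -4.57 on the 430 2.0 arrays.

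Without SB203580 replicate 2 or 3, or U0126 replicate 2 or 3, neither gene was called. Ahrr, the repressor that the receptor induces, read 78.8, 19.0 and 33.9 with SB203580 and 136.6, 280.6 and 250.8 with U0126, with no overlap and a difference of -2.14 ± 0.57 that did not pass (adjusted p = 0.0794). Tiparp, another induced gene, stood at -0.60 (adjusted p = 0.128), Arnt at -0.40, Ahr at -0.11 and Nqo1 at -0.05. All 7 tested genes of the list were negative, as were 7018 of all 12614 genes. The 2 called stand against 1.24% of all genes called higher with U0126, and the median was -0.60.

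**Figure D3:**
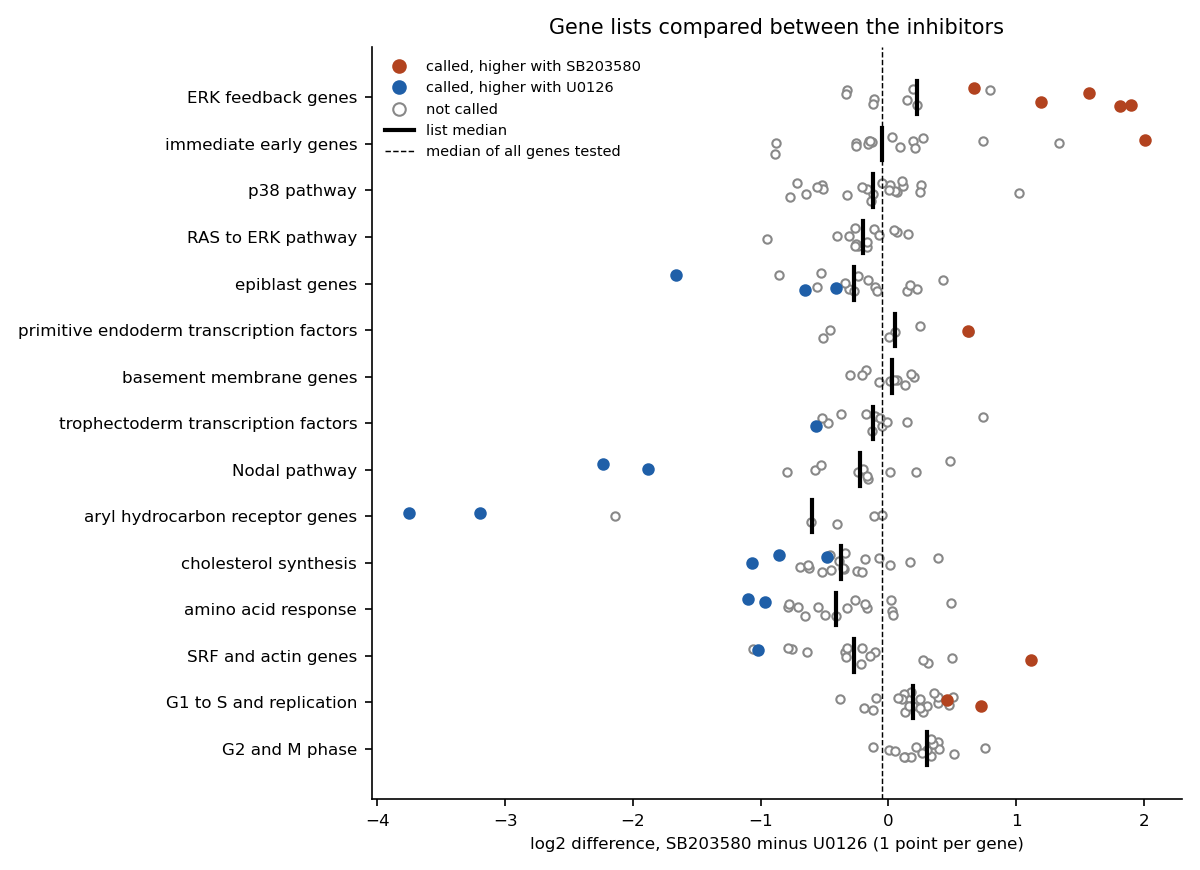
Each point is a gene of a list, by its brightest probe set, at its log2 difference, SB203580 minus U0126, with called genes filled, list medians as bars and the median of all genes (-0.05) as a dashed line. The 5 called ERK feedback genes lie to the right, and the called epiblast, Nodal, aryl hydrocarbon receptor, cholesterol and amino acid response genes lie to the left.

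The cholesterol synthesis genes that passed the test were lower with SB203580. Of 20 tested, 3 were called (Cyp51, Fdft1 and Hmgcs1), all higher with U0126, against 1.24% of all genes. Negative differences were found in 17 of 20, against 7018 of all 12614 genes, and the median was -0.37. The median was -0.42 in replicate 1 and -0.35 on the 430 2.0 arrays, and lay between -0.45 and -0.28 in all alternatives. In 12 of the 20 genes the samples did not overlap with U0126 higher, against 2071 of all 12614 genes tested. Without 1 sample 2 or 3 were called, and none without the intensity trend.

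Fdft1, which makes squalene, read 896.1, 3942.5 and 4312.4 with SB203580, 2001.1, 6569.5 and 6909.1 with U0126, and 1922.2, 8217.3 and 8922.5 in the controls. SB203580 samples were low, and the difference was -0.85 ± 0.13 (adjusted p = 0.00228). Cyp51, the lanosterol demethylase, gave 294.1, 913.4 and 917.6 with SB203580 and 804.4, 1881.5 and 1555.1 with U0126, a difference of -1.07 ± 0.17 (adjusted p = 0.00416). Fdft1 and Cyp51 stayed called without any 1 sample. Fdft1 was called at 2 of 2 probe sets and Cyp51 at 1 of 3, all 3 of the same sign.

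Hmgcs1, which makes the precursor of mevalonate, differed by less, with 3694.3, 13263.4 and 10930.3 against 5464.2, 15981.0 and 16678.0. The U0126 samples were higher in each array type (-0.48 ± 0.10, adjusted p = 0.0232, 3 of 5 probe sets called), and leaving out SB203580 replicate 2 was the only omission that kept the call. SREBP factors switch on this pathway through sterol regulatory elements. The upstream stretch of Hmgcs1 that matched TCACNCCAC (chr13:119690154-119690282, plus strand, GRCm38.p6) is shown with the match in capitals, 137 bases before the start. It is shown because, of the 16 genes of the list with a window, this was the 1 that matched.
Hmgcs1: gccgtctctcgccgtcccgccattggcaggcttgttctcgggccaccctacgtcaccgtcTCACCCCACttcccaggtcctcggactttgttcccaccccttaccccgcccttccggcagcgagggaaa
The letters matched in 1.05% of all windows on either strand.

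Lss at -0.69 (adjusted p = 0.0692), the sterol carrier gene Stard4 at -0.63 (adjusted p = 0.0555) and Sqle at -0.45 (adjusted p = 0.0802) came nearest to the threshold among the others named. Nsdhl, a later enzyme of the pathway, differed by -0.08 between the inhibitors (95% interval -0.34 to 0.19), and stood at -0.82 and -0.74 against the shared controls. Over the list, the median against those controls was -0.48 for SB203580 and -0.13 for U0126.

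Of 17 genes of the amino acid response, which ATF4 drives, 2 were called, both higher with U0126, against 1.24% of all genes, and the median was -0.41. Nupr1, a small stress-induced chromatin protein, read 114.9, 739.1 and 675.6 with SB203580, 283.5, 1478.7 and 1465.4 with U0126, and 222.3, 950.8 and 935.0 in the controls. U0126 samples were the highest in each array type, and the difference was -1.10 ± 0.20 (adjusted p = 0.0109). Nupr1 was called at 1 of 2 probe sets, both of the same sign. Mthfd2, a mitochondrial enzyme of folate metabolism, gave 520.2, 1650.8 and 1305.7 against 1245.6, 2359.6 and 2895.8 (-0.96 ± 0.18, adjusted p = 0.0113). Without SB203580 replicate 1 or U0126 replicate 3, neither was called. None of 16 endoplasmic reticulum chaperones was called by its brightest probe set, and the median was 0.23. An unadjusted p under 0.05 by limma was found for 6, against 13.3% of all probe sets tested. No heat shock gene (10 tested), NRF2 gene (10) or p53 target (14) was called, with medians of -0.04, -0.10 and -0.12. In these lists 0, 3 and 5 had an unadjusted p under 0.05 by limma, against the same 13.3%.

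The cell cycle genes that passed the test were higher with SB203580. Of 23 genes of the G1 to S transition and of replication 2 were called, both higher with SB203580, against 0.721% of all genes. Of the 23 differences 19 were positive, against 44.3% of all genes, and the median was 0.19. Cdc6, which licenses replication origins, read 1583.7, 3443.9 and 3905.8 with SB203580 and 1019.8, 2533.8 and 1809.2 with U0126. SB203580 samples were higher (0.72 ± 0.13, adjusted p = 0.0109). Pcna, the sliding clamp of DNA polymerase, gave 8793.1, 21293.1 and 19001.9 against 6789.7, 14568.0 and 13819.9 (0.46 ± 0.10, adjusted p = 0.0226). Neither was called without SB203580 replicate 3 or U0126 replicate 3, or from the 430 2.0 arrays alone. After median centring 6 of the 23 were called.

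In the G2 and M phase list 16 of 17 differences were positive, against 44.3% of all genes, with a median of 0.30. None was called by the brightest probe set. An unadjusted p under 0.05 by limma was found for 7, all higher with SB203580, against 13.3% of all probe sets tested in either direction. Kif11, a spindle motor, stood at 0.76 (adjusted p = 0.0983), Ccna2, which encodes cyclin A, at 0.51 (adjusted p = 0.0571) and Cdk1 at 0.39 (adjusted p = 0.142). These medians lay between 0.16 and 0.28 for G1 to S and between 0.18 and 0.39 for G2 and M over all alternatives.

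Actin and SRF target genes went in both directions, with 2 of 16 called, against 1.96% of all genes. Cnn2, a calponin that binds actin, read 1248.0, 1722.5 and 1696.1 with SB203580, 2515.8, 4173.4 and 2923.3 with U0126, and 1970.0, 3379.2 and 2761.9 in the controls. SB203580 samples were low, by -1.02 ± 0.15 (adjusted p = 0.00191), a call that held without any 1 sample. Ccn1, a secreted matrix protein induced by growth factors, gave 258.1, 524.5 and 652.8 with SB203580, 178.3, 192.2 and 231.2 with U0126, and 342.3, 719.0 and 755.2 in the controls. U0126 samples were low here, and the difference was 1.11 ± 0.24 (adjusted p = 0.0278), lost without SB203580 replicate 1, 2 or 3 or U0126 replicate 2 or 3. Ccn1 was called at 1 of 4 probe sets, and 3 of the 4 had the same sign. Srf itself stood at -0.75 (adjusted p = 0.0687), and the list's median was -0.27.

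Glycolysis genes had a median of 0.00 and 2 of 14 called, in opposite directions, against 1.96% of all genes. Hk2, a hexokinase, read 4339.2, 9414.8 and 8816.4 with SB203580 and 5173.9, 15005.7 and 17198.5 with U0126. It was higher with U0126 in each array type (-0.63 ± 0.12, adjusted p = 0.0115). Slc16a1, a lactate carrier, gave 1236.4, 2886.3 and 3102.8 against 630.9, 2536.6 and 1879.8 (0.62 ± 0.15, adjusted p = 0.0440). Its call held only without U0126 replicate 2 among the omissions, and Hk2 lost its call without SB203580 replicate 2 or 3 or U0126 replicate 3. No lysosome gene (15 tested) or ribosome biogenesis gene (16) was called by limma, with medians of -0.13 and 0.06. In these lists 3 and 1 had an unadjusted p under 0.05 by limma, against 13.3% of all probe sets tested.

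Beyond these lists, the 12 genes with the largest differences toward SB203580 included Tspan1, Arrdc4, Odc1 and C8g, which were low with U0126 in every replicate against both other groups. Tspan1, a tetraspanin of epithelial membranes, read 834.4, 1525.7 and 1028.0 with SB203580, 146.3, 380.2 and 447.2 with U0126, and 979.2, 1430.5 and 1250.2 in the controls. The U0126 samples were far below, and the difference was 1.85 ± 0.22 (adjusted p = 0.000437). Arrdc4, an arrestin-related gene, gave 505.9, 669.9 and 706.2 against 252.1, 205.4 and 231.7 (1.39 ± 0.21, adjusted p = 0.00313). Tspan1 and Arrdc4 were each called at 1 of 2 probe sets, both of the same sign.

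Odc1, the first enzyme of polyamine synthesis, read 5866.2, 11715.8 and 11508.9 with SB203580, 2697.7, 4395.0 and 3609.8 with U0126, and 4544.5, 8518.6 and 7632.5 in the controls. The groups were well apart in each array type, and the difference was 1.40 ± 0.11 (adjusted p = 9.67e-06). That is 1 of its 3 probe sets, and the brightest differed by 0.32. C8g, which encodes the gamma chain of complement C8, gave 76.4, 176.9 and 137.7 against 18.2, 9.7 and 6.2, and 60.9, 150.3 and 103.5 in the controls. Its U0126 signals were at or under the added constant on the 430 2.0 arrays, so the size of 2.54 ± 0.49 (adjusted p = 0.0135) depends on that constant and ran from 1.52 to 3.44 over the alternatives. Leaving out SB203580 replicate 1, 2 or 3 or U0126 replicate 3 lost the C8g call.

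Cd24a and Becn2, like Egr1, were high with SB203580 against both other groups. Cd24a, a surface glycoprotein, read 452.1, 630.2 and 1035.1 with SB203580, 155.7, 240.8 and 213.1 with U0126, and 319.5, 211.6 and 148.0 in the controls. The SB203580 samples stood alone (1.67 ± 0.33, adjusted p = 0.0140). A call was made at 1 of 3 probe sets, all 3 of the same sign. It was lost without SB203580 replicate 3 or U0126 replicate 1 or 3. Becn2, a paralog of the autophagy gene Becn1, gave 2293.4, 670.0 and 683.4 against 1132.1, 280.9 and 155.1, and 1025.0, 149.7 and 204.2 in the controls (1.43 ± 0.27, adjusted p = 0.0115). The Becn2 call was lost without SB203580 replicate 2 or 3 or U0126 replicate 3. Rassf4, a RAS association domain gene, read 404.5, 197.7 and 204.7 with SB203580 and 175.2, 7.5 and 41.9 with U0126. It differed by 2.18 ± 0.42 (adjusted p = 0.0127), with 1 of 3 probe sets called and all 3 of the same sign. Leaving out SB203580 replicate 2 or 3 lost the call. Dtl, a substrate receptor of a ubiquitin ligase, differed by 1.88 ± 0.42 (adjusted p = 0.0306) at a dim probe set, 1 of 6, and the brightest stood at 0.43. Of the 6, 5 had the same sign. Leaving out SB203580 replicate 1, 2 or 3 or U0126 replicate 3 lost the Dtl call.

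Among the 12 largest differences toward U0126, Klk7, Ndrg4, Tgfbi and Cdk18 had U0126 signals above both other groups in every replicate. Against control, U0126 was called for the first 3, and for Cdk18 the difference of 1.42 was not (adjusted p = 0.0726 by limma). Klk7, a serine protease of the kallikrein family, read 255.5, 294.4 and 270.4 with SB203580, 1419.8, 1298.0 and 1140.2 with U0126, and 182.1, 285.4 and 211.6 in the controls. The U0126 samples were clear of all others (-2.18 ± 0.21, adjusted p = 8.87e-05). Ndrg4, of the Ndrg family, gave 1235.3, 654.9 and 673.1 against 2597.8, 4123.7 and 5027.0, and 716.8, 910.8 and 706.5 in the controls (-2.19 ± 0.28, adjusted p = 0.000768). U0126 samples were high here too.

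Tgfbi, a secreted matrix protein, read 88.4, 84.5 and 162.1 with SB203580, 350.3, 659.5 and 717.1 with U0126, and 95.1, 172.7 and 119.6 in the controls, with 3 of 4 probe sets called (-2.23 ± 0.33, adjusted p = 0.00237). Cdk18, a cyclin-dependent kinase related to Cdk16, gave 174.5, 45.7 and 100.9 against 662.5, 432.4 and 348.0, and 249.3, 191.0 and 92.5 in the controls (-2.15 ± 0.33, adjusted p = 0.00316). In both genes the U0126 samples were the highest. Klk7, Tgfbi and Cdk18 were called in every alternative fitted, as was Ndrg4 except without the intensity trend. The probe sets of Tgfbi and Ndrg4 end in _x_at and _s_at, so the alternative without such probe sets did not hold them.

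Ctsll3, a cathepsin-like protease gene, read 4.8, 209.0 and 266.4 with SB203580, 578.8, 882.0 and 445.1 with U0126, and 1041.3, 1388.1 and 707.3 in the controls. SB203580 replicate 1, under the added constant, carried much of the size, since the difference of -2.60 ± 0.57 (adjusted p = 0.0297) was -5.09 in replicate 1 and -1.36 on the 430 2.0 arrays, where it was not called. Zfp945, 1700042O10Rik, Fbxw10 and Arhgap17 differed by -2.37, -2.26, -2.14 and -2.13 (adjusted p = 0.0112, 0.0297, 0.0284 and 0.0269), with several SB203580 signals near or under the constant, and for 1700042O10Rik the difference ran from -3.32 to -1.28 over the alternatives. Fbxw10 and Arhgap17 were not called without any 1 sample, 1700042O10Rik stayed called in 1 of the 6 omissions and Zfp945 in 3. For Arhgap17 1 of 3 probe sets was called and the brightest stood at -0.43, and for Zfp945 the other probe set had the opposite sign.

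Both groups were also set beside the controls, which the 2 differences share, so those differences are not independent of each other. By limma 105 probe sets (0.389%) were called for SB203580 against control and 121 (0.448%) for U0126 against control. Of the 114 genes called higher with SB203580, U0126 was farther from control than SB203580 in 80 (70.2%), with median differences from control of 0.22 for SB203580 and -0.49 for U0126. Of the 171 genes called higher with U0126, SB203580 was the farther one in 113 and U0126 in 58 (33.9%), with medians of -0.60 and 0.36. The controls lay between the groups in 91 of the 114 (79.8%) and in 139 of the 171 (81.3%), against 36.2% and 38.7% of all genes tested with the same sign. The called genes were chosen for a large difference between the groups, so these shares are a description. Over all genes tested, U0126 was the farther one in 2789 of the 5583 with SB203580 above U0126 and in 3881 (55.3%) of the 7018 with U0126 above.

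**Figure D4:**
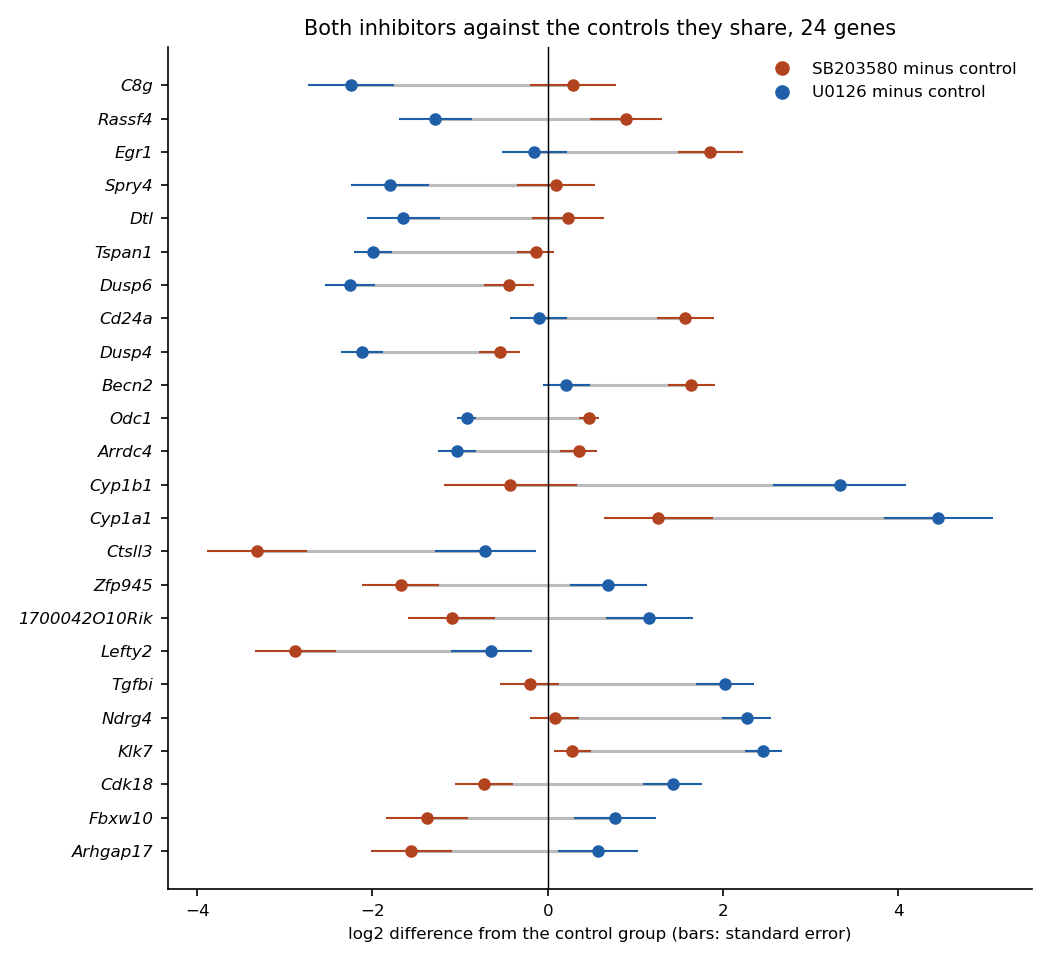
For the 12 genes with the largest differences in each direction, points give the log2 difference of SB203580 (orange) and of U0126 (blue) from the control group that both share, with bars for the standard error, and a grey line joins the pair. In the upper 12, U0126 was farther from control in 9, all but Egr1, Cd24a and Becn2, and in the lower 12 it was farther in 7.

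Markers of cells that could accompany embryos were compared as well. The summed signal of 12 cumulus and granulosa cell genes was 5207.8, 4275.4 and 4767.3 with SB203580 and 4646.1, 5066.9 and 5463.7 with U0126. For 9 uterine and oviduct epithelium genes it was 2152.3, 1982.8 and 1608.2 against 2026.9, 2162.6 and 2740.7. In both lists U0126 was higher without overlap on the 430 2.0 arrays and lower in replicate 1. For 10 blood and immune genes it was 521.2, 713.9 and 829.7 against 563.2, 965.8 and 1276.7, higher with U0126 in each array type. These sums include members too dim to test. The median signal of the 430 2.0 arrays was also higher with U0126, at 77.7 and 83.0 against 66.2 and 68.9. Of the 5, 4 and 4 members that were bright enough to test none was called by limma, with medians of -0.22, -0.16 and -0.36. Among them 0, 1 and 1 had an unadjusted p under 0.05 by limma, against 13.3% of all probe sets tested. Defining markers such as Amh, Fshr and Ptx3 of cumulus and granulosa cells, Ltf and Pax8 of reproductive tract epithelium, and Ptprc, Tyrobp and Hba-a1 of blood cells were among those too dim to test. Oocyte genes (5 tested) and cleavage stage genes (7) had no called member either and none at an unadjusted p under 0.05, with medians of -0.06 and 0.24. The part of such cells in the differences above was not tested.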

How the data were processed

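Signals of 6 blastocyst samples (3 with SB203580, 3 with U0126) were compared. The deposited tables hold linear signal intensity, which the authors scaled on each array to a mean of 500 with 2% trimmed at each end. This was checked on the files, and the software is not given in the sources used here. To these, 12.6 (the 20th percentile of the 430 2.0 values) was added and the log2 taken. Of 45037 probe sets, 34945 name 1 gene, 932 several and 9160 none in the platform annotation. The test took the 27022 with a mean 430 2.0 signal at or above the 40th percentile (42.9) and used limma 3.58.1 (R 4.3.3). All 4 groups entered the model, with array type as a block, an intensity trend and 7 residual degrees of freedom. Tests are two-sided. The code was tested on simulated data. Arrays carry no counts, so their number limits the precision.

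A gene in a list stands by its brightest tested probe set. Named are the 12 largest called differences in each direction among genes whose samples do not overlap, up to 4 called members of each list, tissue markers and pathway kinases. Lists, members and tests were chosen with earlier results of these data known. Promoter sequences, from 250 bases before the start, are from RefSeq. The motifs CCGGAAGT and TGANTCA were also searched and were present in 2.88% and 6.75% of all windows. The alternatives tried were other added constants, filters and scalings, fewer samples or arrays, a replicate block and other estimates of spread. Same-numbered replicates of different groups deviated with correlations of 0.018 to 0.088, so numbers were not taken as pairs.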

Additional observations from a re-analysis of the deposited data

How the results depend on the processing

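Against 371 probe sets called (144 higher with SB203580, 227 higher with U0126), fitting the SB203580 and U0126 samples alone, with 3 residual degrees of freedom, gave 177 (61 of them higher with SB203580). The 430 2.0 arrays alone gave 197 (71 higher with SB203580), and no intensity trend gave 36 (8 higher with SB203580). Median centring gave 283 higher with SB203580 and 168 higher with U0126, 451 in all, of which 312 were among the 371. Leaving out each sample in turn gave 145 to 321 called and 46 to 142 higher with SB203580. The replicate block gave 418, with 368 of the 371 kept. Constants of 1 and 50, no filter, a 60th percentile filter, quantile normalization, robust estimates and the omission of probe sets ending in _x_at or _s_at gave between 298 and 498. The cause of these shifts was not tested, except that the smaller fits hold fewer samples. Of the 46 called genes that the rule for named genes gave (not Spry2 or the further genes described below), 15 stayed called without any 1 sample. In every alternative fitted 8 stayed called (Arrdc4, Cdk18, Fgf4, Klk7, Krt7, Odc1, Tgfbi and Tspan1), and none of the 46 changed sign. For Fgf4 and Tgfbi this leaves out the fit without _x_at and _s_at probe sets, which did not hold theirs. List medians kept their sign in all alternatives for the ERK feedback, epiblast, Nodal, aryl hydrocarbon receptor, cholesterol, amino acid, G1 to S and G2 and M lists. The immediate early median ran from -0.14 to 0.14, the basement membrane median from -0.12 to 0.12 and the cavitation median from -0.14 to 0.13.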

Other observations

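Beside the genes named above, the 20 further genes with the smallest adjusted p (limma) for SB203580 minus U0126 held 13 higher with U0126 and 7 higher with SB203580. They were picked on this contrast, so their values are a description. Glipr1, a secreted protein of the CAP family, was low with SB203580, at 372.6, 802.4 and 925.3 against 1642.7, 2604.6 and 2940.6 with U0126 and 1395.9, 3103.5 and 2747.5 in the controls. It differed by -1.81 ± 0.14 at 1 of 2 probe sets. Transporters were among the 13. Slc39a2, a zinc importer, read 2647.6, 745.0 and 677.6 with SB203580 and 5569.4, 4000.4 and 4314.6 with U0126 (-2.04 ± 0.23). Slc7a7, a carrier of cationic amino acids, gave 827.6, 984.4 and 1158.5 against 1783.8, 3220.5 and 3325.2 (-1.44 ± 0.15, both of its 2 probe sets called). Atp12a, a proton and potassium pump, gave 390.5, 526.4 and 606.7 against 938.4, 1447.5 and 2243.3 (-1.51 ± 0.18). Against the controls, Slc39a2, Slc7a7 and Atp12a stood at -1.76, -0.59 and -0.92 with SB203580. With U0126 they stood at 0.28, 0.845 and 0.60.

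Ndrg1, of the same family as Ndrg4, was higher with U0126 at all 5 of its probe sets, with 6620.0, 13705.4 and 11610.2 against 11889.6, 21549.5 and 21819.2 (-0.80 ± 0.11). Morc1 and Tex19.2, both known from germ cells, were lower with SB203580 than with U0126, by -1.79 ± 0.22 and -1.26 ± 0.18. SB203580 was the group farther from the controls, at -1.34 for Morc1 and -0.91 for Tex19.2, against 0.45 and 0.36 for U0126. In the other direction, Plet1, a surface protein of trophoblast progenitors, read 1993.3, 3176.5 and 3395.7 with SB203580, 1136.3, 1252.3 and 1141.1 with U0126, and 1859.5, 2470.9 and 2523.3 in the controls, so that U0126 samples were the low ones (1.23 ± 0.15, 2 of 3 probe sets called). Shroom3, which organises apical actin in epithelia, behaved alike, with 1486.3, 4371.3 and 4015.6 against 869.9, 1492.4 and 1223.5 (1.34 ± 0.17, 2 of 4 probe sets called).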
